A study of Homo sapiens with 12 samples.

Results

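The effect of siRNA against SRC-1 in estradiol-treated cells was measured as the difference between 3 arrays labelled siSRC-1_E and 3 labelled NT_E, 6 of the 12 arrays of the series. The members were all 19460 probe sets that carry exactly 1 gene symbol, of 33297 on the array, and they cover 18417 genes. Every array held RNA of U2OS-ER-alpha cells, a human osteosarcoma line that carries estrogen receptor alpha. Whether the line is a single clone, and what drives the receptor, is not given in the sources used here. Cells of the NT_E arrays had been transfected with a non-targeting siRNA pool at 50 nM, and those of the siSRC-1_E arrays with a pool against SRC-1 (gene NCOA1) at the same dose. Both were then kept in medium with charcoal-stripped serum, which is low in steroids, and given 17-beta-estradiol for 3 h. Vehicle-treated cells with the same siRNAs (NT_V and siSRC-1_V, ethanol for 3 h, 3 arrays each) were used for comparison. SRC-1 was targeted by 1 pool throughout, so loss of SRC-1 and other effects of that pool cannot be told apart. Replicates are labelled as biological; what separates them is not given, and p-values measure the spread among them.

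SRC-1 belongs to the p160 family of coactivators, large proteins that bind nuclear receptors once a hormone is bound and recruit enzymes that modify histones. Besides steroid receptors, it has been described as a partner of other transcription factors, among them AP-1 and NF-kB, which drive genes of inflammation, matrix breakdown and cell survival. In U2OS cells the receptor is supplied from outside, so that hormone effects can be set against a line that does not otherwise depend on estrogen.

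Values are log2 expression per probe set as the authors deposited them, and 1 unit is a 2-fold step in signal. Levels of different probe sets are not compared. Medians of the 6 arrays lay between 6.855 and 6.895, and replicate arrays correlated at 0.9977 to 0.9979 (NT_E) and 0.9972 to 0.9977 (siSRC-1_E). Means over lists of cell type markers were taken in each array. For 17 leukocyte genes they were 6.15 to 6.18 in the NT_E and 6.03 to 6.12 in the siSRC-1_E arrays, for 13 endothelial genes 6.52 to 6.56 and 6.44 to 6.52, for 16 epithelial genes 7.31 to 7.33 and 7.25 to 7.30, and for 16 mesenchymal and osteosarcoma genes 9.24 to 9.30 and 9.18 to 9.22. Of these lists KRT19, LYZ (-0.35, in the dimmest quartile), CD44 and CDH2 were called, none of them once the control probe sets described below entered the fit as a covariate; the part of such shifts in the results was not tested. PTPRC, the pan-leukocyte antigen CD45, had means of 4.21 and 4.24, below the lower quartile of the arrays (5.17 to 5.21). Group means in the leukocyte list ran from 4.21 to 10.58, and 4 of its 17 genes were in the dimmest quartile. VIM, the intermediate filament vimentin of mesenchymal cells, had means of 12.44 and 12.48, in a list whose group means ran from 5.22 to 13.27. Neither gene stands for its list. All arrays held RNA of 1 cell line, so these lists do not count cells of other types. In bulk RNA, fewer cells with a transcript and less of it per cell cannot be told apart.

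NCOA1, the target of the siRNA, had the smallest p-value of all probe sets tested. Its probe set (8040552) read 9.15, 9.06 and 9.02 in the control arrays and 6.79, 6.88 and 6.92 in the knockdown arrays. The groups lay far apart and within each the spread was small. The difference was -2.21 ± 0.11 log2 (SE, 3 arrays per group), a 4.64-fold drop that left 21.5% of the control signal (limma adjusted p = 7.92e-06). In vehicle the same siRNA left 13.2%. NCOA2, which encodes the p160 relative SRC-2, read 8.58, 8.53 and 8.64 in control arrays and 8.71, 8.77 and 8.75 after knockdown, and its difference of 0.16 ± 0.06 did not pass (adjusted p = 0.248). The third family gene, NCOA3, has no probe set with 1 symbol and is not analysed here. ESR1, which encodes estrogen receptor alpha, read 12.15, 12.19 and 12.10 in its probe set 8122843, against a mean of 12.03 ± 0.0178 (SD, n = 3) after knockdown. That difference of -0.12 ± 0.04 was not called (adjusted p = 0.163), although the groups did not overlap, but was called under a robust, trended variance (0.018). The second ESR1 probe set (8122840) had means of 5.52 and 5.53.

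**Figure D1:**
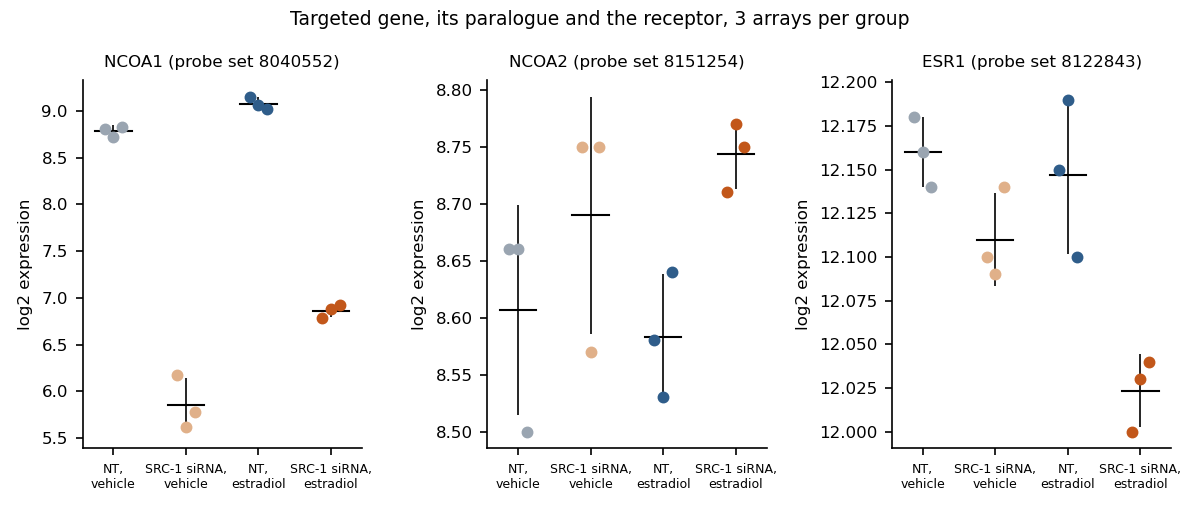
Log2 expression of NCOA1, NCOA2 and ESR1 (y axis, a separate scale for each gene) in the 4 groups (x axis; NT, non-targeting siRNA). Points are single arrays, horizontal lines means and vertical lines SD (n = 3); NCOA1 with estradiol lies at 9.02 to 9.15 with non-targeting and at 6.79 to 6.92 with SRC-1 siRNA.

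Across all 29094 probe sets tested, 524 (1.8%) were called, at an unadjusted p under 0.01 and an adjusted p under 0.05 in limma. Of these, 213 (0.732% of those tested) were higher and 311 (1.07%) lower after knockdown. The groups were fully apart in every called probe set, and in 22.3% of all those tested. Where groups of a called gene are said below not to overlap, this describes its values and adds nothing to the call. Among the members the calls came to 441 of 19460, with 167 increases and 274 decreases, in 431 genes. Counting each gene once, by its brightest probe set, 420 of 18417 genes (2.28%) were called, 157 higher (0.852%) and 263 lower (1.43%). An unadjusted limma p under 0.05 was found for 3181 of these 18417 genes. Beside these shares, 0 calls or 1 call in a short gene list does not set that list apart. Counts of called genes in the lists below are to be set beside the same shares. Decreases were also larger: 8 probe sets fell and 0 rose at least 2-fold, and 49 fell and 14 rose at least 1.5-fold. The median size of a called difference was 0.344 log2, while the median over all probe sets was -0.0063.

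Calls were more frequent among probe sets with high signal. In the lowest quartile by mean signal 15 were called higher and 9 lower, in the highest 99 and 170. The count fell without any compared array: it was 285, 216 and 290 without NT_E replicate 1, 2 or 3, and 245, 367 and 249 without siSRC-1_E replicate 1, 2 or 3. Each of these omissions leaves a group an array short, and the median SE was then 0.0781 to 0.0794 log2 rather than 0.0711. The 4203 probe sets taken as array controls and left out also read higher after knockdown, by a mean of 0.102 log2 (0.135 ± 0.042 against 0.032 ± 0.036, SD, n = 3, as deviations from their mean over 12 arrays), and the groups did not overlap. With that array mean as a covariate in limma, 121 were called, 14 higher and 107 lower, so that the share called higher was 11.6% rather than 40.6%. Since the covariate itself differs between the groups, the fit is less precise, with a median SE of 0.0909 rather than 0.0711 log2. Some differences that lost their calls were larger in that fit and others smaller, so a lost call alone does not show a smaller difference. In vehicle the covariate fit called 388, against 352 without it. How far this offset is part of the differences was not tested beyond that fit. Kept in every setting, below, means called at the same thresholds in each alternative fit, this covariate and all single-array omissions included. A fit to the 6 compared arrays alone called 174. Among genes chosen by the naming rule it ended the same calls as the covariate, except that it kept those of IL24, PLAUR, TGFB1, ID4, RGS2, THRB, PALLD, MYBL1, KIAA1107 and ARB2BP and ended those of IL13RA2 and VLDLR.

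**Figure D2:**
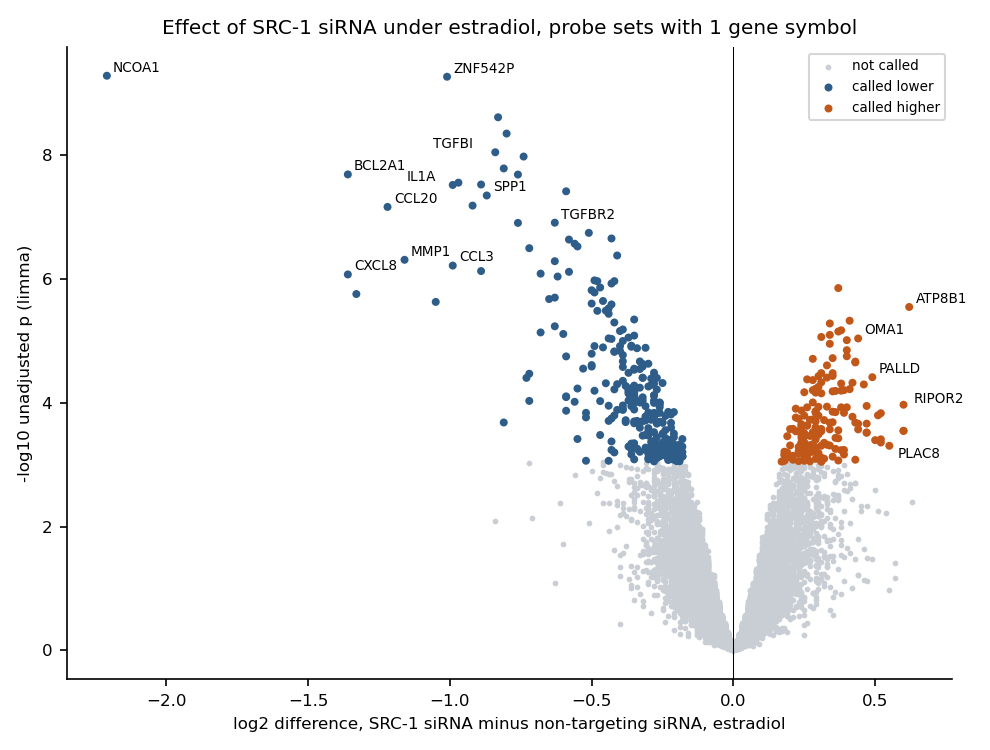
Each point is a probe set with 1 gene symbol, placed by its log2 difference (x axis, SRC-1 siRNA minus non-targeting siRNA under estradiol) and by the -log10 of its unadjusted limma p (y axis); colours mark calls. NCOA1 stands alone at -2.21, the other labelled decreases lie between -1.36 and -0.63, and no called increase exceeds 0.62.

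CXCL8, CCL20, CCL3 and IL1A, which encode secreted inflammatory signals, were among the 20 largest decreases. Their promoters are printed because SRC-1 has been described as a partner of AP-1 and NF-kB. Whether either factor has a part in these decreases was not tested. The windows are the 200 bases before the RefSeq start on GRCh38.p14, 5′ to 3′ on the gene's strand. They are CXCL8 at chr4:73740369-73740568 (plus strand), CCL20 at chr2:227813642-227813841 (plus), CCL3 at chr17:36090144-36090343 (minus) and IL1A at chr2:112784494-112784693 (minus). Capitals mark matches, on either strand, to TGANTCA (AP-1) and GGNNTTTCC (NF-kB, written kB).
CXCL8: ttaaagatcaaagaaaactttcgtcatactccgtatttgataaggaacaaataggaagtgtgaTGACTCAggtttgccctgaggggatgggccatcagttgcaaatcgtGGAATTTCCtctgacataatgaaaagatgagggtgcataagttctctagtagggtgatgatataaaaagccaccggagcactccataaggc
CCL20: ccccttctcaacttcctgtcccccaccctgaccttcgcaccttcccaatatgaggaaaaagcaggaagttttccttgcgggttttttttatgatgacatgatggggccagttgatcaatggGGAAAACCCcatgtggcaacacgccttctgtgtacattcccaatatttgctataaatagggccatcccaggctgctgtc
CCL3: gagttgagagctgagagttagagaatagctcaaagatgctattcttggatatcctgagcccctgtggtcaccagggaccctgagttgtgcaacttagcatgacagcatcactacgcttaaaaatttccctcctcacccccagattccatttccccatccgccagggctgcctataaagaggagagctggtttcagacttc
IL1A: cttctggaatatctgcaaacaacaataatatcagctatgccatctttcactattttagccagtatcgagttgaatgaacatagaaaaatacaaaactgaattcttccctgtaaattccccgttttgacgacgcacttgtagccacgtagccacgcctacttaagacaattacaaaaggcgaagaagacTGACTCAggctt
CXCL8 has a kB match 91 bases and an AP-1 match 137 bases before the start, CCL20 a kB match at 79 bases, IL1A an AP-1 match at 12 bases, and CCL3 neither. Such matches describe letters and not bound sites. Of the 20 largest decreases 15 had a promoter entry, and 2 (13.3%) held the kB and 2 (13.3%) the AP-1 motif, all among the 4 printed. Of 214 genes called lower with an entry in the table, 19 (8.88%) held the kB and 18 (8.41%) the AP-1 motif in this window. Among 137 called higher it was 7 (5.11%) and 6 (4.38%), among 14239 measured genes 4.71% and 3.89%, and in the whole table of 27305 promoters the shares were 4.46% and 5.39%. The full estrogen response element, GGTCA and TGACC separated by any 3 bases, occurred in 0 of the 214 and 0 of the 137 windows. It occurred in 1 of the 14239 measured genes (0.00702%) and in 0.0403% of all promoters. It is so rare that these counts of 0 cannot show whether it is depleted.

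CXCL8 encodes interleukin-8, the chemokine that attracts neutrophils. It read 10.56, 10.91 and 10.63 in the control arrays and 9.14, 9.65 and 9.22 after knockdown, a 2.57-fold drop (-1.36 ± 0.14 log2, adjusted p = 0.000727). CCL20, which attracts cells that carry the receptor CCR6, went from 9.29, 9.57 and 9.35 to 8.14, 8.29 and 8.11 (-1.22 ± 0.10, 2.33-fold, adjusted p = 0.000112). In both genes the lowest control array stood well above the highest knockdown array. CCL3, a chemokine for monocytes and other leukocytes, went from 8.44, 8.44 and 8.60 to 7.51, 7.73 and 7.26 (-0.99 ± 0.10, adjusted p = 0.000593). IL1A encodes interleukin-1 alpha, which cells release on damage, and went from 8.01, 8.14 and 8.18 to 7.25, 7.09 and 7.01 (-0.99 ± 0.07, adjusted p = 6.33e-05). All 4 kept their calls whichever of the 12 arrays was left out, and with the covariate.

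Among chemokines and their receptors those 3 were the only calls. Of 25 genes 0 were higher and 3 (12%) lower, against 1.43% lower over all genes. The median of the list was -0.0456 log2 against -0.0112 over all genes. Other chemokine genes of the same families did not pass. CXCL1 (0.05), CXCL2 (-0.03) and CXCL3 (-0.05), which signal through the same receptor as interleukin-8, had adjusted p-values of 0.716, 0.93 and 0.781, and CCL2, a monocyte chemokine, had -0.26 (0.283). These 4 were picked as relatives of the called genes after their values were seen.

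Cytokines and their receptors held the most calls of the 45 gene lists examined. Of 35 measured genes 0 were higher and 8 (22.9%) lower, against 0.852% and 1.43% of all genes, and the list's median was -0.14. IL24, a cytokine of the interleukin-10 family, went from 11.54, 11.65 and 11.66 to 11.16, 11.17 and 11.03 (-0.50 ± 0.07, adjusted p = 0.00448), with no overlap. IL1RAP, the shared second chain of interleukin-1 receptors, read 8.02, 7.96 and 7.94 and then 7.63, 7.62 and 7.62 (-0.35 ± 0.05, adjusted p = 0.00314). TNFRSF11B encodes osteoprotegerin, the decoy receptor that restrains osteoclast formation, and fell from 8.69, 8.61 and 8.61 to 8.27, 8.23 and 8.21 (-0.40 ± 0.06, adjusted p = 0.00416). These 3 kept their calls in all fits that left out 1 array, and IL24 lost it with the covariate. IL13RA2, a decoy receptor for interleukin-13, dropped by 0.68 log2, but all its arrays, at 4.98, 4.70 and 5.08 and then 4.11, 4.33 and 4.26, were in the dimmest quartile of probe sets, where signal is not shown to exceed background.

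The remaining called members of that list, named after their values were seen, were LIF (-0.44 ± 0.08), IL6R (-0.28 ± 0.05) and IL1RL1 (-0.28 ± 0.05). LIF is a cytokine of the interleukin-6 family, IL6R the interleukin-6 receptor and IL1RL1 the interleukin-33 receptor. LIF was lost without NT_E replicate 1 or 2 or siSRC-1_E replicate 1 or 3 (adjusted p up to 0.088), IL6R without NT_E replicate 2 or 3 or siSRC-1_E replicate 3 (0.0669) and IL1RL1 without NT_E replicate 1 or 2 or siSRC-1_E replicate 2 or 3 (0.0826). All 3 were lost with the covariate. Without NT_E replicate 2 the list held 5 calls and with the covariate 4. Interleukin-6 itself, IL6, also picked after its values were seen, read 6.44, 6.36 and 6.46 against 6.22, 6.43 and 6.30 and the groups overlapped.

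**Figure D3:**
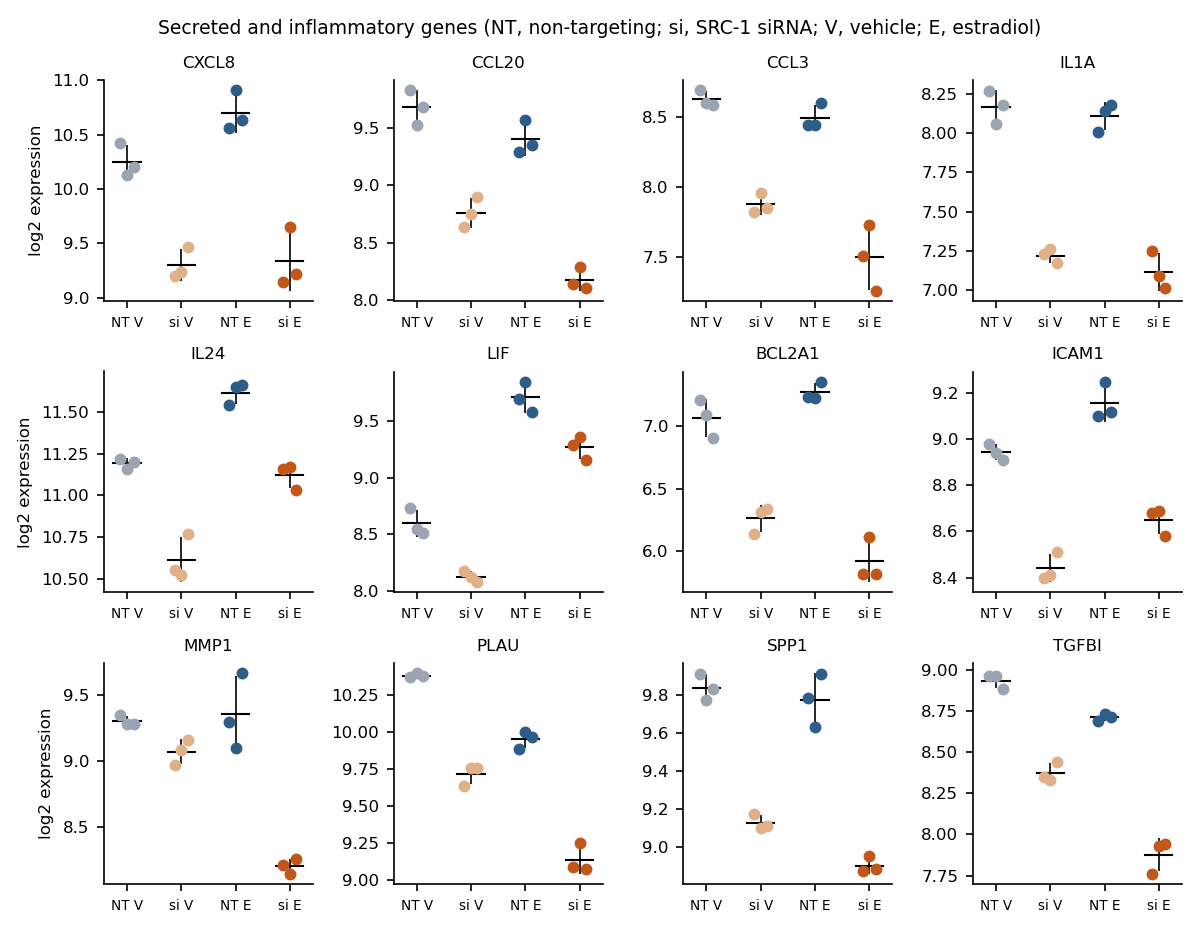
Log2 expression (y axes, a separate scale for each gene) of 12 genes of inflammation, cell survival, proteolysis and matrix in the 4 groups (x axes). Points are single arrays, horizontal lines means and vertical lines SD (n = 3); in every panel the 3 estradiol arrays with SRC-1 siRNA lie below the 3 with non-targeting siRNA, while in vehicle MMP1 differs by -0.23.

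Of 29 NF-kB subunit and feedback genes 24 had differences below 0, against 10058 of 18417 over all genes. The median was -0.12 against -0.0112. Of the 29, 3 (10.3%) were called, all lower, against 1.43% called lower over all genes. ICAM1, an adhesion molecule for leukocytes, went from 9.10, 9.25 and 9.12 to 8.68, 8.69 and 8.58 (-0.50 ± 0.05, adjusted p = 0.00106) and kept its call in every setting. NFKB2 and RELB encode the p100 and RelB subunits of the non-canonical NF-kB branch and fell by 0.32 and 0.31 log2. NFKB2 was lost without NT_E replicate 2 (adjusted p = 0.0631). With the covariate, or without NT_E replicate 2, ICAM1 was the 1 call of the list. RELB was called in 2 of the 12 fits that left out 1 array, those without siSRC-1_V replicate 1 or siSRC-1_E replicate 2, and its adjusted p reached 0.141. The canonical subunit genes RELA (-0.02) and NFKB1 (0.07) and the inhibitor gene NFKBIA (0.03) had adjusted p-values of 0.856, 0.58 and 0.854; these were picked after their values were seen.

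BCL2A1, a survival protein of the BCL2 family and a well-known NF-kB target, had the largest drop after NCOA1 together with CXCL8. It read 7.24, 7.23 and 7.36 in control arrays and 5.82, 6.11 and 5.82 after knockdown (-1.36 ± 0.10, 2.57-fold, adjusted p = 5.47e-05). The rest of the BCL2 family and the caspases gave 2 smaller calls of 30 genes, BNIP3L (-0.28) and BID (-0.21), both of which promote cell death. BNIP3L was lost without NT_E replicate 2 or siSRC-1_E replicate 3 (adjusted p up to 0.0626), BID without any single one of the 6 compared arrays (up to 0.116), and both with the covariate. Without NT_E replicate 2 or siSRC-1_E replicate 3 the list held 1 call. Since siRNA itself can set off defences, 25 sensors of double-stranded RNA and parts of the siRNA machinery were listed. Cells of both groups received an siRNA pool at the same dose, so a defence that both pools set off alike cannot show in this difference. By limma 0 of these 25 genes were called, against 2.28% of all genes, so 0 calls do not set the list apart. Of the 25 genes, 6 had an unadjusted limma p under 0.05, and the list's median was -0.0179. AGO2, the nuclease of RNA interference, differed by 0.08 (adjusted p = 0.431). Of 37 interferon-stimulated genes 1 was called, ISG20, an exonuclease, at -0.59 ± 0.10 (adjusted p = 0.0118), lost without NT_E replicate 2 or siSRC-1_E replicate 1 or 3 (up to 0.0566) and with the covariate.

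MMP1, PLAU and PLAUR, genes of matrix proteolysis, were called lower. MMP1, the interstitial collagenase, read 9.30, 9.10 and 9.67 in control arrays and 8.21, 8.14 and 8.25 after knockdown (-1.16 ± 0.11, 2.23-fold, adjusted p = 0.000513). PLAU, the urokinase plasminogen activator, went from 9.89, 10.00 and 9.97 to 9.09, 9.25 and 9.08 (-0.81 ± 0.06, adjusted p = 5.34e-05), and its receptor gene PLAUR from 11.14, 11.23 and 11.23 to 10.71, 10.85 and 10.85 (-0.40 ± 0.05, adjusted p = 0.00382). The collagenase, the plasminogen activator and its receptor thus all read lower in every knockdown array. MMP1 and PLAU kept their calls in every setting, PLAUR in all but the covariate fit, and PLAU and PLAUR were the 2 calls of 21 complement and coagulation genes. Of 37 metalloproteinases and their inhibitors 3 were lower and 1 higher (10.8% called, against 2.28% of all genes), with a median of -0.0276. MMP12, macrophage elastase, rose by 0.52 ± 0.10 from 6.00, 6.03 and 5.87 to 6.58, 6.59 and 6.29. The sheddase genes ADAM19 (-0.23) and ADAM12 (-0.21) were the other decreases. MMP12, ADAM19 and ADAM12 kept their calls in 7, 5 and 2 of the 12 single-array omissions, with adjusted p-values up to 0.113, 0.114 and 0.123. The list held 1 call without NT_E replicate 1, 2 or 3 or siSRC-1_E replicate 1 or 2, and 1 with the covariate.

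LAMB3, a chain of the basement membrane protein laminin-332, fell from 10.32, 10.30 and 10.27 to 9.79, 9.91 and 9.76 (-0.48 ± 0.05, adjusted p = 0.000834) and kept its call in every setting. PLOD2, which hydroxylates lysines for collagen crosslinks, fell by 0.36 ± 0.05 (adjusted p = 0.00383), a call lost with the covariate and the 1 call of 19 genes of collagen processing. LAMB1 and TNC, the genes of another laminin chain and of tenascin-C, had called differences of -0.19 and -0.23. Both calls were lost without any single one of the 6 compared arrays and with the covariate, so that 1 of the 3 calls among 34 matrix genes (median -0.0671) then stood. Of 27 collagen genes limma called 0, against 2.28% of all genes, with 4 at an unadjusted p under 0.05 and a median of -0.011. COL1A1, which encodes a chain of the main bone collagen, had a difference of 0.00 (limma adjusted p = 0.998).

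Among integrins and adhesion genes 4 of 36 were lower and 1 higher (13.9% called, against 2.28% of all genes), with a median of -0.0425. Besides ICAM1 these were ITGA5, the alpha chain of the fibronectin receptor (11.11, 11.16 and 11.13 to 10.88, 10.84 and 10.78; -0.30 ± 0.04, adjusted p = 0.00588), and CD44, the hyaluronan receptor (12.16, 12.11 and 12.23 to 11.88, 11.88 and 11.92; -0.28 ± 0.04, adjusted p = 0.00731). Both kept their calls without any single array and lost them with the covariate. ITGA2, the alpha chain of a collagen receptor, fell by 0.38 ± 0.07 and was lost without siSRC-1_E replicate 1, 2 or 3 (up to 0.0816). CDH2, N-cadherin, rose by 0.25 ± 0.04 and was lost without siSRC-1_E replicate 1 (0.0501). The list held 3 calls without siSRC-1_E replicate 1 and 1 with the covariate. ITGA5 was also the 1 call among 7 genes reported as SRC-1 targets in breast tumours.

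Bone genes gave 3 calls of 26 (11.5%), against 2.28% of all genes. All 3 were lower and kept in every setting, and the list median was -0.0387. SPP1, osteopontin, a secreted phosphoprotein of bone matrix, went from 9.78, 9.63 and 9.91 to 8.87, 8.95 and 8.88 (-0.87 ± 0.07, 1.83-fold, adjusted p = 8.21e-05). ALPL, the alkaline phosphatase needed for mineralisation, went from 7.81, 7.74 and 7.75 to 7.36, 7.31 and 7.34 (-0.43 ± 0.05, adjusted p = 0.00089). The other was TNFRSF11B, given above. In these genes the 3 knockdown arrays lay close together below the control arrays. RUNX2, the transcription factor that sets osteoblast fate, was picked after its values were seen and differed by 0.12 (adjusted p = 0.655).

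Of 44 genes of the TGF-beta, activin and BMP pathway 4 were lower, 2 higher and 38 not called, against 1.43% lower and 0.852% higher over all genes, and the median was 0.00218. On the receptor side, TGFBR2 went from 10.91, 10.93 and 11.01 to 10.24, 10.41 and 10.32 (-0.63 ± 0.05, 1.54-fold, adjusted p = 0.000182). Of the ligands, TGFB1 went from 9.92, 9.90 and 9.84 to 9.55, 9.59 and 9.58 (-0.32 ± 0.05, adjusted p = 0.00623). TGFB2 moved the other way, from 9.16, 9.03 and 8.86 to 9.55, 9.58 and 9.43 (0.51 ± 0.09, adjusted p = 0.0183). The type II receptor and the first ligand were thus lower and the second ligand higher. TGFBI, a secreted adhesion protein that TGF-beta induces, went from 8.69, 8.73 and 8.71 to 7.76, 7.93 and 7.94 (-0.84 ± 0.06, 1.78-fold, adjusted p = 3.76e-05). ID4, an inhibitor of helix-loop-helix factors that BMPs can induce, rose from 8.10, 8.09 and 8.13 to 8.45, 8.45 and 8.39 (0.33 ± 0.05, adjusted p = 0.00607). TGFBI and TGFBR2 kept their calls in every setting, whereas ID4, TGFB1 and TGFB2 lost theirs with the covariate. TGFB2 was also lost without NT_E replicate 2 or 3 or siSRC-1_E replicate 1 or 2 (adjusted p up to 0.0715). FSTL3, an activin antagonist named after its value was seen, fell by 0.27 ± 0.06 and was called in 5 of the 12 fits that left out 1 array (up to 0.146). The list held 4 calls without NT_E replicate 2 or siSRC-1_E replicate 1 or 2, and 2 with the covariate.

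Brakes on receptor and MAP kinase signalling were lowered in 3 of 23 cases (13%, against 1.43% of all genes) and raised in 0, with a median of -0.0757. DUSP7, a phosphatase of the kinase ERK, went from 11.74, 11.80 and 11.77 to 11.37, 11.33 and 11.32 (-0.43 ± 0.04, adjusted p = 0.000293). RGS2 and RGS4, which switch off G proteins, fell by 0.49 ± 0.07 and 0.59 ± 0.10 (adjusted p = 0.00382 and 0.0166). DUSP7 kept its call in every setting, RGS2 in all but the covariate fit, and RGS4 was lost with the covariate and without NT_E replicate 1, 2 or 3 or siSRC-1_E replicate 1 or 3 (up to 0.0987), so that the list held 1 call with the covariate. In the cell cycle lists RB1, the retinoblastoma tumour suppressor, was the 1 call of 47 G1/S genes, at 10.27, 10.19 and 10.22 against 9.75, 9.70 and 9.74 (-0.50 ± 0.07, adjusted p = 0.00623, kept in every setting). Of 43 G2/M genes limma called 0, against 2.28% of all genes, with 3 at an unadjusted p under 0.05 and a median of 0.0266. The mitotic kinase gene PLK1 differed by -0.03 (adjusted p = 0.817) and the anaphase activator gene CDC20 by -0.01 (0.936).

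The lists of glycolysis and hypoxia, cholesterol synthesis and fatty acid metabolism held 2 calls each (6.25%, 9.09% and 6.45%), against 2.28% of all genes. SLC2A3, the glucose transporter GLUT3, fell from 11.26, 11.39 and 11.21 to 10.78, 10.72 and 10.61 (-0.58 ± 0.06, adjusted p = 0.000701) and kept its call in every setting. The other call of 32 glycolysis and hypoxia genes was NDRG1, a hypoxia-induced gene, at -0.25 ± 0.04, lost with the covariate. PDK4, a kinase that shuts pyruvate out of the citrate cycle, rose from 7.07, 7.10 and 6.98 to 7.43, 7.52 and 7.39 (0.40 ± 0.05, adjusted p = 0.00343) and kept its call in every setting. In cholesterol synthesis 2 of 22 genes were called higher, LSS (0.27 ± 0.05) and MSMO1 (0.30 ± 0.07), both enzymes of sterol ring formation and trimming. In that list 19 of 22 differences were above 0, against 8359 of 18417 over all genes, and its median was 0.12 against -0.0112. LSS was called in 3 and MSMO1 in 2 of the fits that each left out 1 of 12 arrays, any of the 6 compared arrays ending both calls at adjusted p-values up to 0.113 and 0.141, and neither was called with the covariate. The other call of 31 genes of fatty acid metabolism besides PDK4 was ACSL5, which activates fatty acids (-0.42 ± 0.07), lost without NT_E replicate 1 or 3 or siSRC-1_E replicate 1 or 3 (up to 0.0752) and with the covariate. Of 39 ribosomal protein genes and 29 genes of oxidative phosphorylation limma called 0, against 2.28% of all genes. In these lists 3 and 2 had an unadjusted p under 0.05, and the medians were 0.0237 and 0.0234.

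Of 29 heat-shock and antioxidant genes 4 were lower, 1 was higher and 24 were not called (17.2% called, against 2.28% of all genes). The median was -0.0149 against -0.0112 over all genes. The calls were led by SRXN1 (-0.28 ± 0.04), OSGIN1 (-0.28 ± 0.05) and NQO1 (-0.28 ± 0.05), which the antioxidant factor NRF2 is known to induce. SRXN1 kept its call without any single array and lost it with the covariate. OSGIN1 and NQO1 were lost without 3 and 4 of the compared arrays, siSRC-1_E replicates 1 and 3 in both cases (adjusted p up to 0.0534 and 0.0768). HMOX1 (-0.23) and MT1X (0.23), the genes of heme oxygenase 1 and a metallothionein, were called in 0 of the 12 fits that left out 1 array, so that the list held at most 3 calls in those fits, 1 without siSRC-1_E replicate 1 or 3, and 0 with the covariate. CHAC1, a glutathione-degrading target of the stress factor ATF4, fell by 0.32 ± 0.05 (adjusted p = 0.0079, lost with the covariate). It was 1 of 3 calls among 36 genes of the ATF4 and unfolded protein responses, with VLDLR, a lipoprotein receptor (-0.28 ± 0.06), and SESN2, a stress-induced inhibitor of the kinase mTORC1 (-0.29 ± 0.06). VLDLR and SESN2 were both lost without any single one of the 6 compared arrays (up to 0.107 and 0.138), leaving CHAC1 as the 1 call. With the covariate VLDLR was the 1 call. SESN2 was also 1 of the 2 calls among 29 p53 targets, with RRM2B, a ribonucleotide reductase subunit (-0.22 ± 0.04), and neither stood without any single one of those arrays or with the covariate.

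Receptor and growth factor lists held small differences in both directions. ERBB3, a receptor of the EGF family, rose by 0.31 ± 0.06, while EGFR itself fell by 0.24 ± 0.05, the 2 calls of 43 growth factor genes. Of 15 genes of the insulin-like growth factor system 2 were lower, IGFBP4, described below, and the receptor gene IGF1R (-0.19 ± 0.04). JUN, an AP-1 subunit, rose by 0.23 ± 0.05, and with NR4A3 it made 2 calls of 33 immediate-early genes. NF2, the Hippo pathway component merlin, rose by 0.22 ± 0.04, the 1 call of 29. SLCO2A1, a prostaglandin transporter, fell by 0.36 ± 0.06, the 1 call of 18, and was lost without NT_E replicate 1 or siSRC-1_E replicate 3 (up to 0.0646). ERBB3, EGFR, IGF1R, JUN and NF2 kept their calls in 7, 2, 2, 1 and 7 of the 12 single-array omissions. For each of these lists there was an omission with 0 calls, NT_E replicate 2 or siSRC-1_E replicate 1 or 3 for growth factors, NT_E replicate 1 or siSRC-1_E replicate 1 for the insulin-like system, NT_E replicate 2 or 3 or any siSRC-1_E array for immediate-early genes, NT_E replicate 1 or 3 or siSRC-1_E replicate 3 for the Hippo pathway, and all 5 lists held 0 with the covariate. Wnt (45 genes), Notch (24), EMT factors (12), ABC transporters (19) and histones (14) had 0 calls by limma, with 3, 5, 4, 5 and 0 at an unadjusted p under 0.05. Over all genes 2.28% were called and 3181 of 18417 had such a p, so 0 calls do not set these lists apart.

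Of 31 nuclear receptor genes 2 were lower and 1 higher (9.68% called, against 2.28% of all genes). THRB, thyroid hormone receptor beta, went from 7.94, 7.80 and 7.84 to 7.41, 7.48 and 7.53 (-0.39 ± 0.06, adjusted p = 0.00851). PPARG, the receptor that drives fat cell formation, rose from 9.54, 9.59 and 9.48 to 9.88, 9.79 and 9.80 (0.29 ± 0.05, adjusted p = 0.0208), and NR4A3, an orphan receptor induced by many stimuli, fell by 0.28 ± 0.05. THRB kept its call without any single array, whereas PPARG and NR4A3 were each called in 7 of those 12 fits (up to 0.0857 and 0.111), and all 3 were lost with the covariate. The list held 1 call without NT_E replicate 2 or 3 or siSRC-1_E replicate 1 or 3. Among 30 other cofactors of nuclear receptors TRIM24 was the 1 call (0.19 ± 0.04), lost without any single one of the 6 compared arrays, with the covariate (adjusted p = 0.33), with the replicate block, after median centring and with all probe sets tested.

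The list of genes induced by estrogen in breast cancer cells gave 2 calls of 35 (5.71%, against 2.28% of all genes). Both were lower, and the median was -0.0213. KRT19, a keratin of simple epithelia, read 8.80, 8.82 and 8.62 in control arrays and 8.42, 8.34 and 8.20 after knockdown (-0.43 ± 0.09, adjusted p = 0.0332). IGFBP4, a binding protein for insulin-like growth factors, read 10.36, 10.21 and 10.41 and then 9.96, 10.00 and 9.95 (-0.35 ± 0.06, adjusted p = 0.0116). Both groups of arrays stayed apart in each gene, as in every called probe set. In the same control cells estradiol against vehicle gave 2.13 log2 for KRT19 and 0.39 for IGFBP4, values that share the NT_E arrays with the knockdown contrast. KRT19 was lost without NT_E replicate 1 or 2 or siSRC-1_E replicate 1, 2 or 3 (up to 0.123), IGFBP4 without NT_E replicate 1 or siSRC-1_E replicate 1 or 3 (up to 0.0534), and both with the covariate. Without NT_E replicate 1 or siSRC-1_E replicate 1 or 3 the list held 0 calls.

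**Figure D4:**
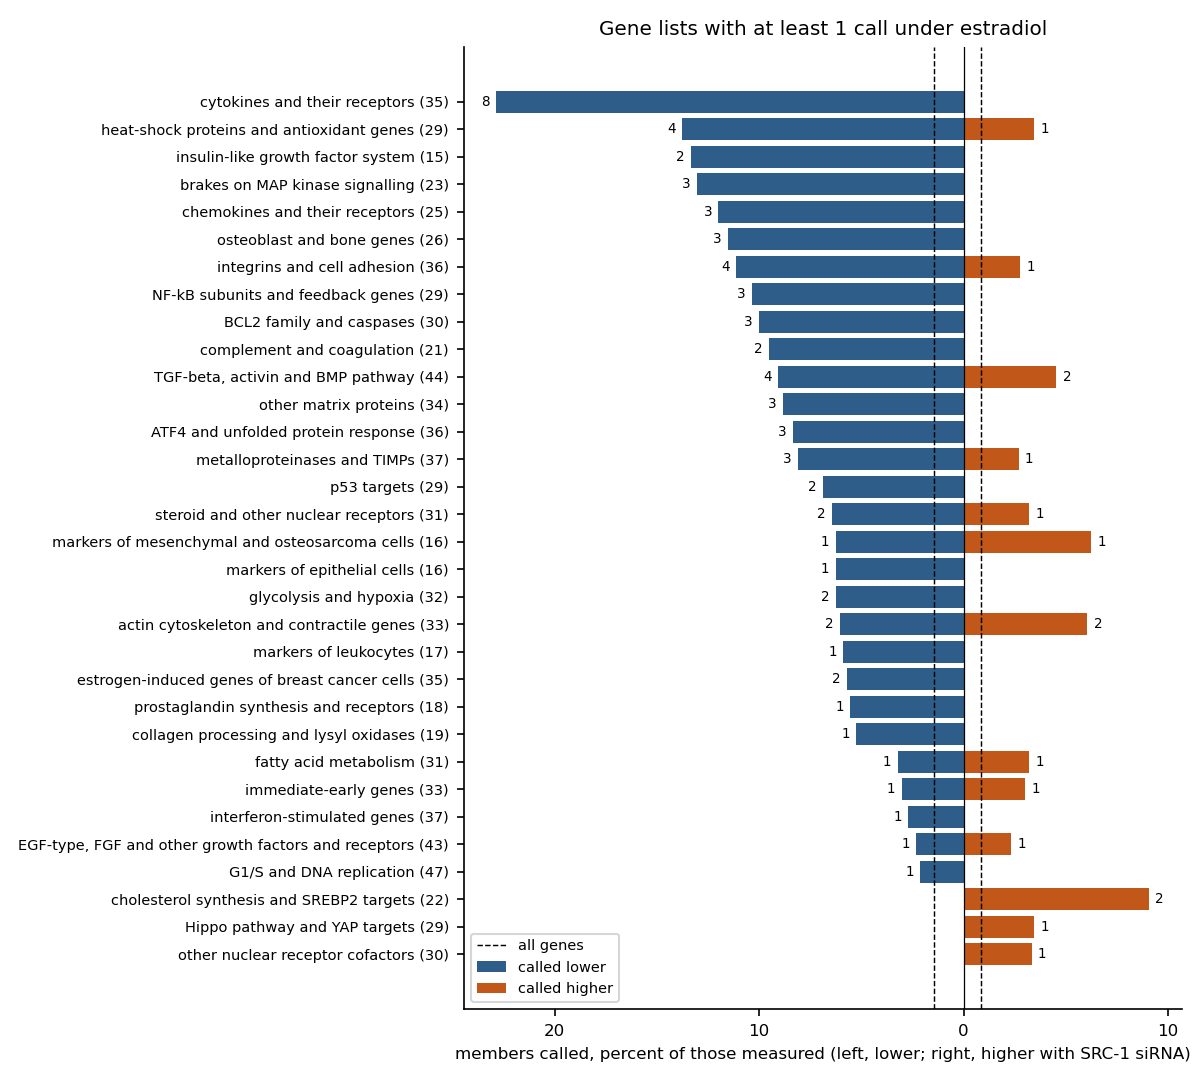
Share of the measured genes of each list (y axis, number measured in brackets) called lower (left bars) or higher (right bars) with SRC-1 siRNA under estradiol, in percent (x axis); numbers at the bars count genes and dashed lines give the shares over all genes. Lists with at least 10 measured genes and at least 1 call are drawn; cytokines and their receptors have the longest bar, 8 of 35, and cholesterol synthesis is the list with 2 calls that are both higher.

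The 20 largest decreases also held genes outside these lists. Read in control and then knockdown arrays, MTMR4, a phosphatase of endosomal lipids, had 10.88, 10.90 and 10.83 and 10.03, 10.13 and 9.98 (-0.83 ± 0.05, adjusted p = 1.43e-05). LIN28B, an RNA-binding protein that blocks let-7 maturation, had 8.94, 8.85 and 8.98 and 8.14, 8.09 and 8.14 (-0.80 ± 0.05, adjusted p = 2.19e-05). NCEH1, a hydrolase of cholesterol esters, had 9.40, 9.34 and 9.48 and 8.58, 8.42 and 8.56 (-0.89 ± 0.07). Groups that do not overlap were a condition for entering the 20. GPR65, a proton-sensing receptor (-1.05), CRCT1, an epidermal gene (-1.33), and GRAMD1B, a carrier of cholesterol from the plasma membrane (-0.97), also fell. MYCT1 (-0.92), KLHL5 (-0.89) and the pseudogenes ZNF542P (-1.01) and ARB2BP (-0.81) complete the set. Of the 20, 19 kept their calls without any single array and with the covariate. The exception was ARB2BP, lost without NT_E replicate 1, 2 or 3 or siSRC-1_E replicate 1 or 3 (up to 0.0935) and with the covariate.

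Increases were smaller and less stable. ATP8B1, a flippase of the plasma membrane, rose most, from 8.10, 8.02 and 7.83 to 8.70, 8.55 and 8.56 (0.62 ± 0.07, 1.53-fold, adjusted p = 0.00148). Genes of actin fibres were among the 20 highest: PALLD, the actin crosslinker palladin, went from 9.91, 9.73 and 9.73 to 10.36, 10.30 and 10.19 (0.49 ± 0.07, adjusted p = 0.0079). CNN1, calponin of smooth muscle, went from 8.94, 9.06 and 8.85 to 9.49, 9.25 and 9.42 (0.44 ± 0.08, adjusted p = 0.0216). PDLIM1 (0.52 ± 0.09) and NEXN (0.47 ± 0.09), both proteins that bind actin filaments, rose as well. All of these had knockdown arrays above every control array, which was a condition for entering the 20 highest. The actin list as a whole was mixed, with 2 of 33 genes higher (CNN1 and MYLK, myosin light chain kinase, 0.28 ± 0.05), 2 lower (among them TAGLN, transgelin, -0.33 ± 0.07) and a median of -0.0173. It held 0 calls without NT_E replicate 1 or 3 or siSRC-1_E replicate 1 or 3, and 0 with the covariate.

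Further increases were those of OMA1, a mitochondrial protease (7.05, 7.02 and 7.04 to 7.48, 7.34 and 7.59; 0.44 ± 0.06, adjusted p = 0.0033), and MYBL1, a MYB-type transcription factor (8.31, 8.25 and 8.41 to 8.76, 8.75 and 8.86; 0.46 ± 0.07, adjusted p = 0.00925). RIPOR2 (0.60), PLAC8 (0.55), GASK1B (0.52), KIAA1107 (0.50), ARRDC3 (0.47), SLC6A16 (0.47), ZNF665 (0.47) and NADK2 (0.44) were also in the 20. PARGP1, a pseudogene, entered with 2 probe sets of identical values (0.60) and RLN2, the hormone relaxin, with 0.43. Both were in the dimmest quartile of probe sets in the control group. Of the 20 probe sets, 4 kept their calls without any single array (ATP8B1, PALLD, OMA1 and MYBL1) and 1, ATP8B1, with the covariate. Leaving out NT_E replicate 1, 2 or 3 ended 12, 13 and 11 of the 20 calls, and leaving out siSRC-1_E replicate 1, 2 or 3 ended 15, 10 and 10. Adjusted p-values of these genes reached 0.126.

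The same siRNA contrast was measured in vehicle-treated cells, on arrays that share nothing with the estradiol arrays except the variance estimate. There limma called 352 of 29094 (1.21%), of which 77 (0.265%) had risen and 275 (0.945%) had fallen. Of the 524 called with estradiol 212 were also called with vehicle, which is 40.5% of the 524 and 60.2% of the 352, and 174 of them were lower and 38 higher in both, with 0 in opposite directions. For decreases the shared calls made up 55.9% of the 311 with estradiol and 63.3% of the 275 with vehicle. For increases they made up 17.8% of the 213 and 49.4% of the 77. Regardless of calls, 298 of the 311 decreases and 189 of the 213 increases had the same sign in vehicle.

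Many of the leading decreases had similar sizes in vehicle. IL1A differed by -0.95 there, NCEH1 by -0.88, ICAM1 by -0.51 and LIN28B by -0.70, against -0.99, -0.89, -0.50 and -0.80 with estradiol. The 95% intervals of the differences between these effects were -0.28 to 0.18, -0.22 to 0.19, -0.17 to 0.17 and -0.25 to 0.06. CXCL8 had -0.94 in vehicle against -1.36 with estradiol (interval of the difference -0.85 to 0.02), and CCL20 -0.91 against -1.22 (-0.61 to 0). MYCT1 had -0.59 against -0.92 (-0.55 to -0.10) and GRAMD1B -0.71 against -0.97 (-0.48 to -0.04). MTMR4 (-0.95), KLHL5 (-0.95) and NCOA1 (-2.93) had more negative values in vehicle than with estradiol. Over 886 probe sets that were lower in the average of both effects, NCOA1 left out, the median was -0.213 with estradiol and -0.216 with vehicle, and 450 were more negative with estradiol. Over 596 that were higher in the average it was 0.209 and 0.172, and 374 were larger with estradiol.

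**Figure D5:**
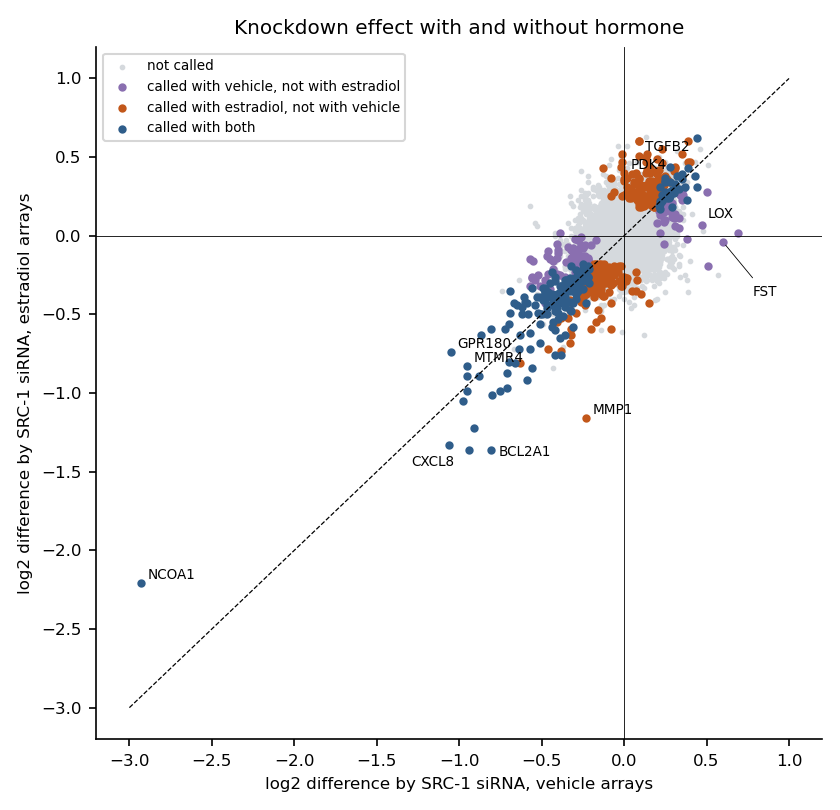
Log2 difference by SRC-1 siRNA in vehicle arrays (x axis) against that in estradiol arrays (y axis) for probe sets with 1 gene symbol, coloured by where they were called; the dashed line marks equal effects. Most called points lie on the same side of 0 in both, with MMP1 far below 0 on the estradiol axis (-1.16 against -0.23) and FST and LOX called higher with vehicle (0.60 and 0.47) and not with estradiol.

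Whether the knockdown effect differs between estradiol and vehicle was tested directly, and limma called 0 of 29094 probe sets (0%). The smallest adjusted p was 0.392, and 2102 had an unadjusted p under 0.05. A robust, trended variance gave 2 calls, both more negative with estradiol. The median half-width of a 95% interval, not adjusted for the number of probe sets, was 0.221 log2. Differences of that size could mostly not be resolved, and larger ones also went uncalled, among them -0.93 log2 for MMP1. Values named by the size of their p are therefore descriptions. MMP1 had the largest of the 12 differences named: -1.16 with estradiol and -0.23 with vehicle, a difference of -0.93 (-1.27 to -0.58). FST, the activin antagonist follistatin, had -0.04 and 0.60 (-0.64, -0.83 to -0.44), and LOX, lysyl oxidase, 0.07 and 0.47 (-0.40, -0.55 to -0.26). FST read 10.46, 10.40 and 10.33 in control and 10.35, 10.39 and 10.35 in knockdown arrays with estradiol, so these overlapped. LOC643406 (-0.70), SPNS3 (-0.47) and LYZ, lysozyme (-0.42), were the other differences below 0. In the other direction PDK4 had 0.40 with estradiol and 0.00 with vehicle (0.40, 0.24 to 0.56), and ANKRD16, an ankyrin repeat protein, 0.21 and -0.21 (0.42, 0.24 to 0.60). SPATA31G1 (0.58), RLN2 (0.56), FREM2 (0.51) and OR7C2 (0.42) were the others above 0. Of the genes described earlier, BCL2A1 had a difference of -0.55 (-0.85 to -0.25), KRT19 -0.57 (-0.84 to -0.31), TGFBI -0.27 (-0.45 to -0.10), PDLIM1 0.53 (0.25 to 0.82) and CNN1 0.46 (0.21 to 0.72), none called. For NCOA1 itself the drop was smaller with estradiol by 0.71 log2 (0.36 to 1.06, adjusted p = 0.442).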

How the data were processed

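RNA of 12 arrays (Affymetrix Human Gene 1.0 ST, 3 per group) was analysed. Per the series' design text the authors processed the scans with the affy package and tested with limma; versions, background correction, normalization and summarization are not given in the sources used here. Values are deposited by the authors as log2 expression, 1 per probe set, and were used unchanged. Of 33297 probe sets, 4203 with identifiers below 7896740 were taken as controls, as inferred from the identifiers, and left out of the 29094 tested. Gene symbols came from the platform annotation: 19460 tested probe sets have 1 symbol, 1754 several and 7880 none; Entrez identifiers matched RefSeq for 19429 and changed 0 symbols. Depth does not apply to arrays; their number limits precision, and the median standard error of a difference was 0.0711 log2.

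The model held 1 mean for each group over the 12 arrays (limma 3.58.1 in R 4.3.3, empirical Bayes variances, two-sided). Called means p under 0.01 before adjustment and under 0.05 after Benjamini-Hochberg adjustment over all probe sets tested, the limits of the design text. The calculation was tested on simulated data. "Kept in every setting" covers the fits without 1 array, with a replicate block, of the 6 compared arrays, without the lowest 40% of probe sets, with array weights, with a robust, trended variance, after centring on medians or quantile normalization, of probe sets with 1 symbol or of all, and with the control mean as covariate. Replicate numbers were not used as pairs, since not every same-numbered pair of arrays had deviations that correlated above 0.1.

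The members, the 45 gene lists (1261 genes, 1167 measured, 1 probe set per gene) and the naming rule were chosen with earlier results of these data known. Named are NCOA1, NCOA2, NCOA3 and ESR1, the 20 highest and 20 lowest called fold changes with groups that do not overlap, up to 5 called members per list by p (or, with none called, the 2 with the highest mean), and 6 differences each way. Genes outside the rule are marked as picked after their values were seen, apart from markers. Promoters came from RefSeq (GRCh38.p14), matched by symbol. The GSK3 siRNA pool in the design text is not analysed here.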

Additional observations from a re-analysis of the deposited data

Results flagged for a closer look

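The probe sets left out as array controls lie outside the main measurement and still read higher with SRC-1 siRNA than with non-targeting siRNA under estradiol, by a mean of 0.102 log2 over 4203 probe sets. Array values were -0.003, 0.032 and 0.068 in the NT_E arrays and 0.133, 0.094 and 0.178 in the siSRC-1_E arrays, so the groups did not overlap. In vehicle the group means were -0.076 ± 0.043 and -0.091 ± 0.067 (SD, n = 3). Of the controls 11 (0.262%) would be called under estradiol in limma, 10 of them higher.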

How the results depend on the processing

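NCOA1 was called in every fit, at -2.43 to -2.18 log2, and no named difference changed sign while called. The knockdown effect under estradiol gave 524 calls, and 174 with only the 6 compared arrays, 1117 without the lowest 40% of probe sets, 1246 with a trended and robust variance, 121 with the control mean as covariate, 167 at an adjusted p under 0.01, 63 at a fold of at least 1.5 and 216 to 547 without single arrays. The knockdown effect under vehicle had 352 calls, which became, in the same order, 90, 728, 857, 388 with the covariate, 145 and 41, and 169 to 338 without single arrays. The overlap of calls, 212, became 60, 402, 481, 93 with the covariate, 89 and 28, and 114 to 164 without single arrays. For the difference of the knockdown effects limma called 0, with 2102 at an unadjusted p under 0.05, and 2 with the trended variance. With the replicate number as a block 520 were called under estradiol, 432 of them among the 524, and 327 in vehicle; deviations of same-numbered arrays correlated at 0.0402, 0.0875 and 0.0849 with estradiol and at 0.172, 0.187 and -0.00703 with vehicle. With estradiol every array correlated best with its own number, a hint from the data and not from the design. Of the 524, the fit with the covariate kept 110. Of 101 named called probe sets 48 kept their calls in all 12 fits without 1 array, 32 with the covariate and 30 in all settings. Genes with several probe sets could disagree: TOR1AIP2, picked after its values were seen, had -0.63 and -0.05. Signal over background was not measured, so changes of probe sets in the lowest quartile are not exact.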

Other observations

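Some called genes belong to no list and were picked after their values were seen. NLRP3, the sensor of an inflammasome, fell by 0.72 ± 0.07 log2 under estradiol (limma adjusted p = 0.000358) and differed by -0.64 in vehicle. DOCK4, an activator of small GTPases, fell by 0.76 ± 0.06, BMAL2, a clock transcription factor, by 0.48 ± 0.06 and JAK3, a kinase of cytokine receptors, by 0.38 ± 0.06. CAV1, the main protein of caveolae, rose by 0.38 ± 0.05, GLI3, a transcription factor of the hedgehog pathway, by 0.34 ± 0.04 and MYOF, the membrane repair protein myoferlin, by 0.34 ± 0.04. All 7 kept their calls without any single array, with adjusted p-values up to 0.0438, and NLRP3, DOCK4, BMAL2 and CAV1 also with the covariate, which ended those of JAK3, GLI3 and MYOF. They were chosen from a longer set of genes looked at, so this does not describe called genes outside the lists. In that set CTSL, DAAM1 and SEMA7A also kept their calls in all 12 such fits. BMAL1 (0.31) and CTSB (-0.25) kept theirs in 1 each and PGF (-0.30) in 2.

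HSD17B2, which converts estradiol to estrone, fell by 0.52 ± 0.09 (adjusted p = 0.017) and lost its call without NT_E replicate 3 or siSRC-1_E replicate 2 or 3 (up to 0.0784) and with the covariate (0.148). GPR180 and SS18, a subunit of a chromatin remodelling complex, fell by 0.74 ± 0.05 and 0.59 ± 0.04, with -1.05 and -0.81 in vehicle, and kept their calls without any single array and with the covariate.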
